A study of Mus musculus with 2 samples.

Results

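The Cyp4 family of fatty acid hydroxylases was examined in mouse kidney with and without Iah1, the gene of an esterase homologous to a yeast isoamyl acetate hydrolase. Its members were 10 genes: Cyp4a10, Cyp4a12a, Cyp4a12b, Cyp4a14, Cyp4a31, Cyp4a32, Cyp4b1, Cyp4f13, Cyp4f14 and Cyp4v3, of 23981 genes named on the array. They were taken by gene symbol, with every probe set that carried a listed symbol, which gave 11 probe sets, 8 with exactly 1 symbol and 3 shared with another gene. The family was chosen by the difference between these 2 arrays, which was already known for Cyp4a14 and Cyp4a31, so the differences are given as a description. One array carried pooled kidney RNA of 3 male Iah1-WT mice and the other that of 3 male Iah1-KO mice, which lack the gene in the whole body; they are called the wild-type and the knockout pool below. Both groups changed from chow to a high-fat diet at 6 weeks of age, stayed on it for 12 weeks in single cages, and went without food for 4 hours before an early afternoon kill. The pools hide the spread between mice, and the single array of each genotype allows no test of their difference. The sources used here name neither the background strain nor the part of Iah1 that was removed.

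Cyp4 enzymes are cytochromes P450 of the endoplasmic reticulum that place a hydroxyl group on the last carbon of a fatty acid, called omega-hydroxylation. The product is oxidised on to a dicarboxylic acid, which peroxisomes shorten, and the same reaction on arachidonic acid gives 20-HETE, an eicosanoid that acts on renal vessels and tubular sodium transport. In rodents Cyp4a10 and Cyp4a14 are classical targets of PPAR alpha, the nuclear receptor that senses fatty acids, while Cyp4a12a is a male-typical, androgen-dependent gene.

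All values are log2 RMA values, and a difference is the knockout value minus the wild-type value; where a pair of values is given, the wild-type value comes first. Values of different probe sets are not on a common scale, since each has its own probes, so levels were not ranked between genes. A probe set counted as measured when the higher of its values was at least 6, called the floor here. Of the 11 Cyp4 probe sets, 7 reached it: Cyp4a14, Cyp4a12a, Cyp4a12b, Cyp4a31, Cyp4b1, Cyp4f13 and the probe set shared by Cyp4a10 and Cyp4a31. The other 4 are reported with their values and enter no count.

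Among the members at or above the floor, Cyp4b1 and Cyp4f13 had a promoter sequence in the RefSeq table (build GRCm38.p6). The 250 bases before each annotated start are shown, 5′ to 3′ on the strand of the gene, because these are the members whose signal can be set beside a regulatory sequence. The Cyp4b1 stretch lies at chr4:115647722-115647971 and the Cyp4f13 stretch at chr17:32947362-32947611, both on the minus strand. Capitals mark the letters TTCNNNGAA, the palindrome that STAT5 and BCL6 proteins can bind.
Cyp4b1: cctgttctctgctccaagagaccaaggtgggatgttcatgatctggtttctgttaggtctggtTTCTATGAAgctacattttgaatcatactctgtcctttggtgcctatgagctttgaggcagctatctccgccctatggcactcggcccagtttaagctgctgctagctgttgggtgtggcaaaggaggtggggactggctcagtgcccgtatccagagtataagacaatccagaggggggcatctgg
Cyp4f13: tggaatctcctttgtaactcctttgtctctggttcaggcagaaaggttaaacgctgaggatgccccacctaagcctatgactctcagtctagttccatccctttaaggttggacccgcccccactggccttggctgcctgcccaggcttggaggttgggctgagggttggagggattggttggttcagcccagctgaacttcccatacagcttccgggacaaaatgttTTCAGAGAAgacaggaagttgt
The palindrome matched from -187 to -179 in Cyp4b1 and from -22 to -14 in Cyp4f13, counted from the annotated start as 0. Of all 32851 windows of 250 bases before and 50 after a start, 8.3% held it on either strand. Of the 8 windows of the 5 members with an entry, 2 held it, and these are the 2 shown. Several of the 8 windows belong to Cyp4f14 and overlap each other, so the 8 are not separate sequences. Also searched, on both strands, were the direct repeat of PPAR alpha (2 copies of AGGTCA with 1 base between), the HNF4 site CAAAGTCCA, and the palindrome of glucocorticoid and androgen receptors (AGAACA and TGTTCT with 3 bases between). None of these overlaps the first palindrome in the windows shown. They were in 0.0396%, 0.475% and 0.00913% of all windows and in 0 of the 8 windows of the 5 members with an entry, which says only that these letters are not in these windows. The other 3 members with an entry were Cyp4a32, Cyp4f14 and Cyp4v3. Cyp4a10, Cyp4a12a, Cyp4a12b, Cyp4a14 and Cyp4a31 had none.

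Cyp4a14 had a lower signal in the knockout pool, the probe set shared by Cyp4a10 and Cyp4a31 was lower to a smaller extent, and Cyp4a12a and Cyp4a12b of the same chromosome 4 cluster lay slightly higher. Cyp4a14, the gene of a lauric acid omega-hydroxylase, had a value of 8.69 in the wild-type pool and 6.97 in the knockout pool. The difference of -1.72 is a 3.30-fold lower signal. It ranked 2 of 8347 named probe sets at or above the floor, in order from the lowest difference, after Iah1 itself. The 500 named probe sets nearest to it in mean signal had a robust SD (scaled median absolute deviation) of 0.12. Both values lay above the array medians of 4.05 and 4.03. Of the 7 Cyp4 probe sets at or above the floor, 1 was at least 2-fold lower and 0 were at least 2-fold higher. Over all 8347 named probe sets at or above the floor, 0.0359% were at least 2-fold lower and 0.012% at least 2-fold higher.

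**Figure D1:**
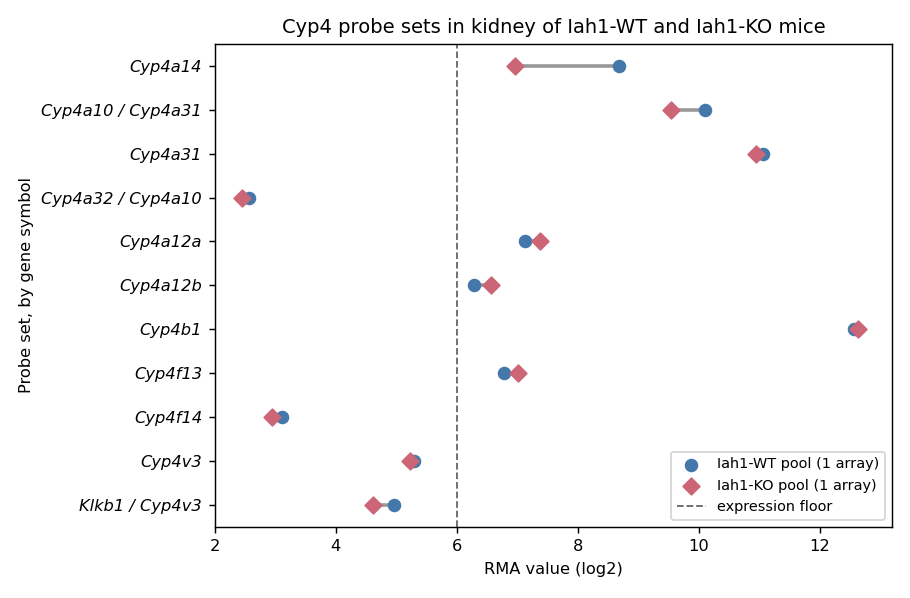
Log2 RMA values of the 11 Cyp4 probe sets, with a circle for the Iah1-WT pool and a diamond for the Iah1-KO pool (1 array each) and a dashed line at the floor of 6. Cyp4a14 has the widest gap, from 8.69 to 6.97, and Cyp4b1 lies at 12.56 and 12.63.

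Cyp4a10, the PPAR alpha-responsive neighbour of Cyp4a14, had no probe set of its own. The probe set it shared with Cyp4a31 had values of 10.10 in the wild-type and 9.54 in the knockout pool. The difference of -0.56 ranked 20 of 8347 from the lowest, against a robust SD of 0.11 at its signal. It did not reach the 1.5-fold threshold, which 0.216% of the named probe sets passed downwards and 0.252% upwards. It was more than 4 robust SDs lower, as 0.24% of named probe sets were (0.276% were as far higher). A separate probe set with Cyp4a31 as its only symbol was at 11.05 and 10.95, a difference of -0.10 with a robust SD of 0.10. The shared probe set therefore differed by more than the one assigned to Cyp4a31 alone, and its signal cannot be divided between Cyp4a10 and Cyp4a31. Whether the probe set assigned to Cyp4a31 also picks up other Cyp4a genes was not tested, since probe sequences were not available. A second shared probe set, of Cyp4a32 and Cyp4a10, was at 2.57 and 2.45, below the array medians and not shown to be above background. Cyp4a32 had no other probe set.

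The near-identical pair Cyp4a12a and Cyp4a12b had higher values in the knockout pool. Cyp4a12a, the gene of the main 20-HETE-forming hydroxylase of the male mouse kidney, was at 7.12 in the wild-type and 7.38 in the knockout pool. Cyp4a12b was at 6.28 and 6.57. Their differences of 0.25 and 0.29 are 1.19-fold and 1.22-fold, against robust SDs of 0.13 and 0.17. Differences of at least this size in either direction were seen in 10.7% and 7.51% of the named probe sets at or above the floor. The paralogs can share probes, so these may not be 2 independent measurements.

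Cyp4b1, whose enzyme acts on shorter fatty acids and activates some foreign compounds, was at 12.56 in the wild-type and 12.63 in the knockout pool. The difference of 0.06 was below the robust SD of 0.10 at its signal. Cyp4f13, a member of the subfamily that inactivates leukotrienes, was at 6.77 and 7.01, a difference of 0.24 with a robust SD of 0.16. Its neighbour Cyp4f14, which hydroxylates leukotrienes and vitamin E, was at 3.11 and 2.94, below the median of both arrays. Cyp4v3, an omega-hydroxylase of medium-chain fatty acids, was at 5.29 and 5.22 in its own probe set. A probe set shared by Cyp4v3 and Klkb1, the plasma kallikrein gene next to it, was at 4.96 and 4.62. Neither Cyp4v3 probe set reached the floor.

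**Figure D2:**
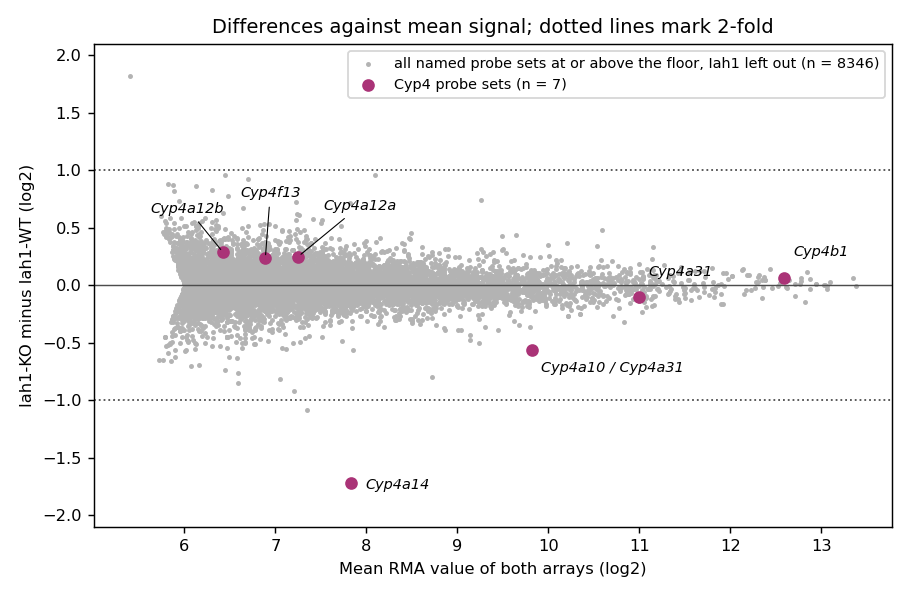
Difference (Iah1-KO minus Iah1-WT, log2) against the mean log2 RMA value of both arrays for the named probe sets at or above the floor, Iah1 left out; the large points are the 7 Cyp4 probe sets and dotted lines mark 2-fold. Cyp4a14 lies at -1.72 below the cloud and the shared Cyp4a10 and Cyp4a31 probe set at -0.56, while the other 5 lie between -0.10 and 0.29.

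The 7 probe sets thus went both ways: 4 were above 0 and 3 below, with a median of 0.06. The median over all 8347 named probe sets was 0.01, and the middle 95% of them lay between -0.31 and 0.35. Of the Cyp4 probe sets, Cyp4a14 and the shared Cyp4a10 and Cyp4a31 probe set were outside that interval. The sign of the Cyp4 median depended on the floor: it was -0.0042 with a floor of 5, -0.020 with a floor of 7 and -0.10 over all 11 probe sets with no floor. Over the probe sets with exactly 1 symbol it was 0.15, so the family as a whole gave no stable direction.

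The position of the members was not used to choose them. By the RefSeq gene models, 10 protein-coding Cyp4 genes stand in 1 run on chromosome 4, in the order Cyp4x1, Cyp4a29, Cyp4a12a, Cyp4a12b, Cyp4a30b, Cyp4a14, Cyp4a10, Cyp4a31, Cyp4a32 and Cyp4b1. A run here lists Cyp4 genes only, and genes of other families that may lie between them were left out. The lower values of Cyp4a14 and of the Cyp4a10 and Cyp4a31 probe set belong to genes that follow each other in this run, and the higher Cyp4a12a and Cyp4a12b stand before them. Genes outside the run differed little where they were measured: Pdzk1ip1 on one side was at 8.93 and 8.94, and on the other side Efcab14 was at 8.03 and 8.08 and Atpaf1 at 7.07 and 7.15. The remaining flanking genes Stil, Tal1 and Tex38 were below the floor. Cyp4f13 and Cyp4f14 come last in the order of 8 Cyp4f genes on chromosome 17. Cyp4v3 on chromosome 8 had no other Cyp4 gene near it, although Cyp4f18 lies on the same chromosome. Over the 3 loci, 6 of 18 flanking genes reached the floor (those on chromosomes 8 and 17 were Fam149a, Tlr3 and Wiz), with differences between 0.01 and 0.13.

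**Figure D3:**
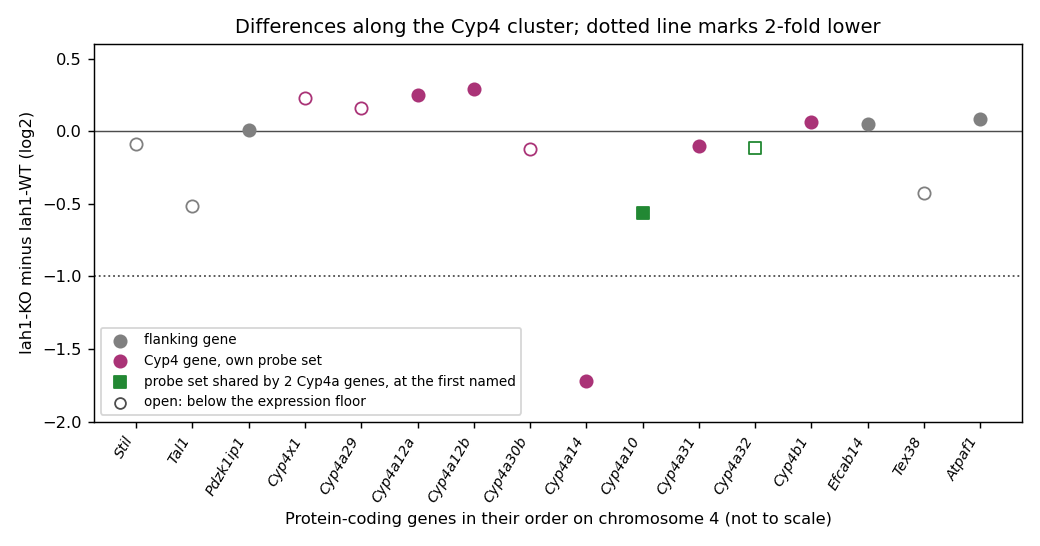
Difference (Iah1-KO minus Iah1-WT, log2) for the protein-coding Cyp4 genes of the chromosome 4 run and 3 genes on each side. Genes are in order and not to scale. Open symbols are below the floor and squares are probe sets shared by 2 genes, drawn at the first one named. Cyp4a14 lies at -1.72 and the square at Cyp4a10 at -0.56, with Pdzk1ip1, Efcab14 and Atpaf1 between 0.01 and 0.08.

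Of the other Cyp4 genes, 12 had a probe set of their own, and 0 of the 12 reached the floor. Cyp4f17, a gene of the chromosome 17 run, was at 5.75 and 5.85. Cyp4f18, a leukotriene hydroxylase gene of neutrophils, was at 4.52 in the wild-type and 3.79 in the knockout pool, a difference of -0.73 with a robust SD of 0.29 at this low signal. The pseudogene Cyp4b1-ps2, which lies among the Cyp4a genes, was at 3.12 and 2.56. Both were below the array median in the knockout pool, and Cyp4f17 and these 2 were named after their values were seen.

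PPAR alpha and its partners had similar values on both arrays. Ppara itself was at 8.28 in the wild-type and 8.27 in the knockout pool, a difference of -0.02. Of the 16 genes listed, 11 were at or above the floor, 5 above 0 and 6 below, with a median of -0.02 against 0.01 over all 7671 genes (each by its brightest probe set with 1 symbol). The furthest were Hnf4a, a nuclear receptor of proximal tubule and liver, at 0.16, the corepressor Nrip1 and the related receptor Ppard both at -0.13, and the coactivator subunit Med1 at 0.12. None of the 11 reached 2-fold, and the median was 0.028 with a floor of 5.

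Targets of PPAR alpha outside the Cyp4 family lay mostly below 0, by less than Cyp4a14. Of 35 genes listed, 26 were at or above the floor, 19 below 0 and 7 above, with a median of -0.10 against 0.01 over all genes. Over all 7671 genes at or above the floor, 3653 were below 0 and 4016 above. None of the 26 reached 1.5-fold, which 0.209% of genes passed downwards, or 2-fold, which 0.0391% passed downwards and 0.013% upwards. Pdk4, a kinase that shuts off pyruvate dehydrogenase, was at 8.13 and 7.57, a difference of -0.56. For the thioesterase gene Acot1 the values were 6.68 and 6.29, and for Angptl4, whose product inhibits lipoprotein lipase, 8.38 and 8.01. Acaa1a, a peroxisomal thiolase, went the other way, from 6.21 to 6.56. Acadm, Acadl and Cpt2 of mitochondrial beta-oxidation differed by -0.10, -0.10 and -0.07, and Cpt1a by 0.01; they were named after their values were seen. This pattern was known before the family was picked, and it is no separate evidence about Cyp4a14.

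The enzymes that take up the products of omega-hydroxylation differed in both directions. Of 28 genes listed, 19 were at or above the floor, 11 below 0 and 8 above, with a median of -0.09, which was -0.038 with no floor, while the list mean was -0.050. Aldh1a1, an aldehyde dehydrogenase that also acts on retinal, was at 7.06 and 6.60, a difference of -0.46. Ehhadh, the peroxisomal bifunctional enzyme needed for dicarboxylic acids, differed by -0.26, and Crot, which exports shortened chains from peroxisomes as carnitine esters, by -0.20. Acaa1a again differed by 0.35. Of the genes with a probe set, 7 stand in both this list and that of PPAR alpha targets, Ehhadh and Acaa1a among them.

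The supply of heme and electrons, which all P450 enzymes share, lay mostly above 0. Of 15 genes listed, 12 were at or above the floor, 9 above 0 and 3 below, with a median of 0.06 (0.039 with a floor of 7). Over all 7671 genes at or above the floor, 4016 were above 0 and 3653 below, with a median of 0.01. None of the 12 listed genes reached 1.5-fold. Alas1, the first and rate-limiting enzyme of heme synthesis, was at 9.30 and 9.50, a difference of 0.20. Uros, Urod and Ppox, of later steps of heme synthesis, differed by 0.26, 0.16 and 0.12. The P450 reductase gene Por was not analysed here.

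The list of arachidonic acid release and competing oxygenases had a median of -0.02 over 10 of 25 genes, 4 above 0 and 6 below. The sign turned with the floor, to 0.021 at 5 and 0.029 at 7, against -0.050 with none. Pla2g4a, the cytosolic phospholipase that frees arachidonic acid, was at 6.13 in the wild-type and 5.83 in the knockout pool. The epoxygenase gene Cyp2j9 differed by -0.26, and Lta4h, the leukotriene A4 hydrolase gene, and the epoxide hydrolase gene Ephx1 by 0.18 and 0.15. None of the 10 reached 1.5-fold. Of the genes with a probe set, 1 stands in both this list and that of PPAR alpha targets.

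Regulators known to set sex-dependent P450 expression had a median of 0.16 over 7 of 15 genes, 6 above 0 and 1 below. The median is the value of Hnf4a, a gene also in the list of PPAR alpha and its partners. The median depended on the floor, with 0.050 at a floor of 5 and 0.038 with none, and on the summary, with a mean of 0.27. Over all 7671 genes at or above the floor, 4016 were above 0 and 3653 below, with a median of 0.01. Bcl6, a transcriptional repressor that binds the same palindrome as STAT5, was at 7.62 in the wild-type and 8.57 in the knockout pool, a difference of 0.96. Stat5a, a transducer of growth hormone and prolactin signals, was at 6.08 and 6.60, and Stat5b at 7.06 and 7.28. Bcl6 was 1 of the 0.222% of genes at least 1.5-fold higher. The androgen receptor gene was not analysed here.

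**Figure D4:**
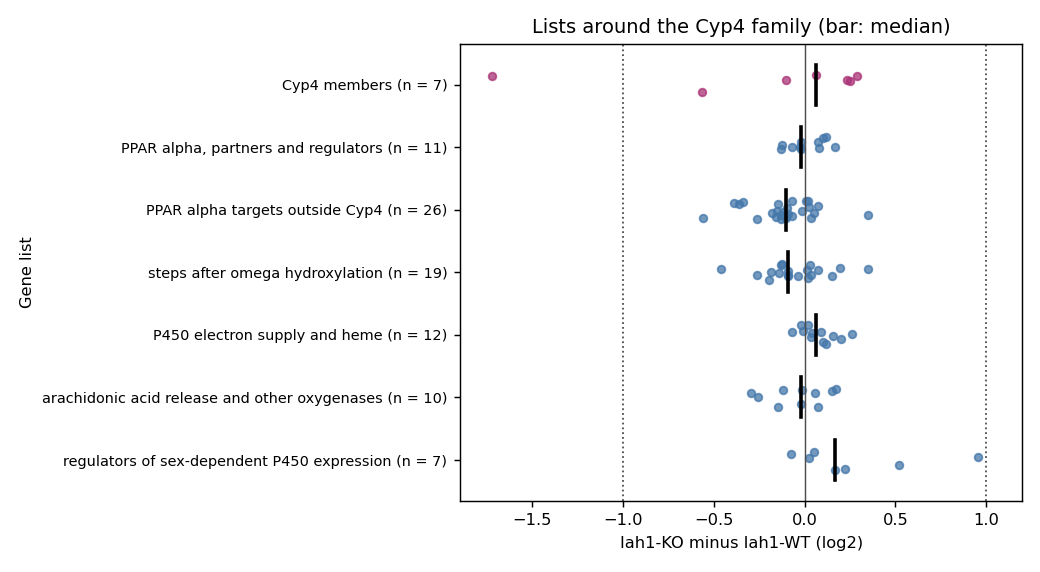
Difference (Iah1-KO minus Iah1-WT, log2) of each gene at or above the floor in 6 gene lists and of the 7 Cyp4 probe sets; bars are medians and dotted lines mark 2-fold. Cyp4a14 at -1.72 is the point beyond 2-fold, and list medians lie between -0.10 and 0.16.

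The 3 genes closest to Cyp4a14 in their difference over the 2 arrays were Gm6300, a transcribed pseudogene (-1.08), Snhg17, a non-coding snoRNA host gene (-0.92), and Atp6v1g3, a proton pump subunit of intercalated cells (-0.81). The gaps to Cyp4a14 were 0.64, 0.80 and 0.91 on the log2 scale.

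Iah1 was at 9.09 in the wild-type and 3.60 in the knockout pool. For the tissue label, 20 of 20 proximal tubule markers, of the cells in which Cyp4a enzymes of the kidney mainly reside, were at or above the floor, and their summed signal was 15.89 and 15.88 on the log2 scale. For 9 markers of the last proximal segment it was 13.44 and 13.40. In pooled whole kidney, fewer cells of a type and less RNA per cell cannot be told apart. The 6 adrenal markers were all below the floor, as were the adipocyte markers Adipoq, Plin1 and Lep, while Fabp4 and Lpl were above it (summed adipocyte signal 10.32 and 10.30). Of 5 liver markers, Alb, Ttr and Cyp2e1 were above the floor and Apoa1 and Serpina1a below it; the summed signal was 12.98 and 12.87. Immune markers summed to 9.93 and 10.08, loop of Henle markers to 12.52 and 12.44, distal tubule markers to 12.04 on both arrays, collecting duct markers to 10.13 and 10.15, and podocyte and endothelial markers to 10.32 and 10.41. Such sums follow their brightest probe sets, and single markers differed by more. All 4 immune markers at or above the floor were higher in the knockout pool, with a median of 0.26, among them Lyz2 at 0.63 and Cx3cr1 at 0.41. In the collecting duct list Atp6v1g3 differed by -0.81 and Aqp2 by 0.49, and in the liver list Alb differed by 0.40, Ttr by -0.19 and Cyp2e1 by -0.11. All 4 loop of Henle markers at or above the floor were lower, with a median of -0.14. The part of these markers in the Cyp4 differences was not tested.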

How the data were processed

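Per the submitters' processing notes, the authors' deposited log2 values per probe set come from RMA as run in Expression Console 1.3.0 of Affymetrix. RMA forces the arrays to a common distribution, which hides a shift shared by most transcripts, and compresses differences of dim probe sets. Each of the 2 arrays carried RNA of 3 pooled mice, per the series' design text. Of 41345 probe sets, 23521 have exactly 1 symbol in GEO's annotation of the platform, 1814 several and 16010 none. Gene lists used the brightest probe set with 1 symbol (22180 genes). Differences were taken as deposited, in Python 3.11.15 (numpy 2.4.6, pandas 2.3.3, statsmodels 0.14.6). The procedure was tested on simulated differences with a spread taken from these 2 arrays. That checks the calculation and says nothing of the spread between mice or between arrays. With 1 array per genotype no p-value or SE is given, and precision is limited by the number of arrays. The members and lists were chosen with earlier results of these data known. By rule, genes named are the members, Iah1, Ppara, up to 4 genes per list furthest from 0 at or above the floor, flanking genes, and the 3 nearest to Cyp4a14 in difference; others, named after their values were seen, are Acadm, Acadl, Cpt2, Cpt1a, Cyp4f17, Cyp4f18, Cyp4b1-ps2 and the markers below the floor. Alternatives were floors of 5 and 7 or none, centring, loess (span 0.3), other thresholds, probe sets with 1 symbol, means over probe sets, and list means.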

Additional observations from a re-analysis of the deposited data

How the results depend on the processing

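Cyp4a14 was the 1 Cyp4 probe set at least 2-fold lower with a floor of 5, of 7 or none, after centring or loess correction, at 1.5-fold, and among probe sets with 1 symbol. At 4 local robust SDs the count was 2, Cyp4a14 and the shared Cyp4a10 and Cyp4a31 probe set, where 0.24% of all named probe sets passed downwards. The count of higher Cyp4 probe sets was 0 under all 8 alternatives. The median of the Cyp4 probe sets was 0.06, -0.0042 with a floor of 5, -0.020 with a floor of 7, -0.10 with no floor and 0.15 with exactly 1 symbol. Centring and loess moved each of the 11 Cyp4 differences by at most 0.03. The median of PPAR alpha and partners was 0.028 with a floor of 5. That of arachidonic acid release and oxygenases was 0.021 with a floor of 5, 0.029 with 7 and -0.050 with none. That of the steps after omega-hydroxylation was -0.038 with no floor, and the list mean was -0.050. That of the sex-dependent regulators was 0.050 with a floor of 5, 0.038 with no floor, and the list mean was 0.27. The cause was not tested beyond the floor changing which genes count. PPAR alpha targets stayed between -0.11 and -0.10 over 8 alternatives; 1 of these, without the 4 members furthest from 0, was chosen after seeing the data. No paired analysis was possible because each genotype has 1 array. Signal limits what can be said of Cyp4f14, Cyp4a32 and Cyp4v3.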
